A study of Mus musculus with 6 samples.

Results

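A set of 10 macrophage genes whose surface proteins stimulate or restrain T cells, or restrain the macrophage itself, was followed in 6 RNA-seq libraries. They are Cd80, Cd86, Cd83, Cd40, Cd274, Pdcd1lg2, Icosl, Cd200r1, Vsir and Havcr2, picked by gene symbol, and each symbol matched 1 row among the 55401 genes of the deposited table, so that all 10 of 10 were found. Most of their proteins are ligands for receptors on T cells, while Cd40, Cd200r1 and Havcr2 encode receptors and the protein of Vsir can act as either. All 10 passed the filter on low counts.

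The cells were mouse bone marrow-derived macrophages, which are grown from marrow progenitors in the cytokine M-CSF. Per the labels' protocols, marrow of C57BL/6 mice was kept for 7 days with 40 ng/mL M-CSF and 10% serum, and poly(A) RNA was sequenced. The labels call 3 libraries wild type (WT 1 to 3) and 3 Mettl3-/- (KO 1 to 3), and both groups share strain, culture and cytokine. The growth protocol mentions a treatment after the culture without naming it, and the labels give no promoter, Cre or allele behind the knockout. Whether the 3 libraries of a group came from separate mice or cultures is not stated either, and the p-values therefore reflect the spread between these libraries alone, which may be technical.

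A T cell that meets its antigen needs further signals from the presenting cell. CD80 and CD86 give the classical one through CD28 and are captured by the inhibitory receptor CTLA-4, and ICOS ligand and CD40 belong to related exchanges in which CD40 on the macrophage receives the signal. PD-L1, PD-L2 and VISTA, encoded by Cd274, Pdcd1lg2 and Vsir, restrain T cells, while the CD200 receptor and TIM-3, encoded by Cd200r1 and Havcr2, hold back myeloid cells. Macrophages carry many of these proteins at rest and raise several of them when activated by interferon gamma or microbial products.

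Of the 10 genes, 6 were called different between the groups at an adjusted p under 0.05 (edgeR's quasi-likelihood test on estimated counts, Benjamini-Hochberg adjustment over 16256 tested genes). Cd86, Cd274 and Vsir were higher in the libraries labelled KO, and Cd83, Cd200r1 and Havcr2 were lower. The share of all tested genes called was 12.7%, with 7.01% called higher and 5.67% called lower, and it was 17.5% among genes with a mean of at least 1 FPKM in a group. FPKM is a level per transcript length and library size, and it allows levels of different genes to be set side by side. In 8 of the 10 genes the FPKM values of the groups did not overlap, as in 33.8% of all tested genes. The median log2 fold change of the 10 genes, labelled KO over WT, was 0.09, against -0.005 over all tested genes, with 6 values above 0. Only Cd83, Cd274 and Havcr2 were called in all 6 fits that left out 1 library.

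Mettl3, the targeted gene, encodes the methyltransferase that adds m6A to messenger RNA, and its level in the libraries labelled KO was not below that in WT (log2 fold change 0.02, edgeR adjusted p = 0.93), and directions are therefore given for the libraries by their labels. Totals ran from 67280390 to 77997742 estimated counts. Mettl3 overlaps Tox4 on the opposite strand, and reads of the overlap cannot be told apart. All 12 macrophage markers listed were detected, with 5 of them called higher under the KO label and 3 called lower. At an unadjusted p under 0.05 by edgeR, 5 were higher and 6 lower. Over all tested genes 12.7% were called, with 7.01% higher and 5.67% lower. Among genes with a mean of at least 1 FPKM in a group, 17.5% were called. The summed level of the 12 macrophage markers was 17597 to 17943 FPKM in WT against 9990 to 10107 FPKM in labelled KO. Most of this sum came from the lysozyme gene Lyz2. Lyz2, the only one of the 3 lower genes named here, had means of 14189 and 6012 FPKM (log2 fold change -1.26), so the sum mainly follows this gene. Among the 5 higher genes, the means of C1qa were 894 and 1275 FPKM, of Csf1r 569 and 687 FPKM and of Fcgr1 172 and 236 FPKM. The median log2 fold change of the 12 markers was 0.06, with 6 values above 0. These are bulk samples, in which fewer cells expressing a gene and less RNA of it per cell cannot be told apart.

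**Figure D1:**
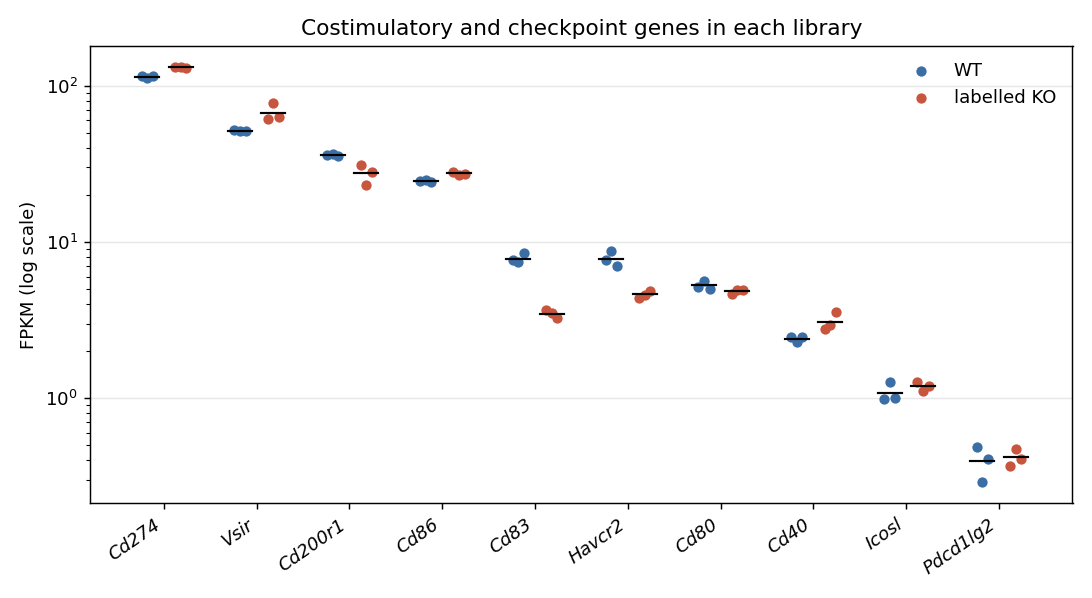
Level of each of the 10 genes in each library, in FPKM on a log scale, with WT libraries in blue, libraries labelled KO in red and a black bar at each group mean. Cd274 stands at the top near 114 FPKM in WT against 131 FPKM in labelled KO, Pdcd1lg2 at the bottom near 0.394 and 0.418 FPKM, and only Icosl and Pdcd1lg2 show overlapping groups.

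Cd274, which encodes PD-L1, the ligand of the T cell inhibitory receptor PD-1, had the highest level of the 10 and was higher in the libraries labelled KO. Its FPKM was 114.9, 111.6 and 115.1 in WT and 131.8, 132.0 and 129.6 in labelled KO. All 3 labelled KO libraries lay above all 3 WT libraries, by at least 14.5 FPKM, and each group varied by under 2% of its mean (coefficients of variation 1.72% and 1.02%). The means were 114 ± 1.95 and 131 ± 1.33 FPKM (SD, n = 3 each), on 30958 to 41173 estimated counts, and Cd274 ranked 355 and 297 among all genes of the table by mean level. The log2 fold change was 0.19 (95% limits 0.14 and 0.23, SE 0.020; edgeR adjusted p = 0.00212), and the adjusted p with any 1 library left out was between 0.00823 and 0.0117. Cd274 (ENSMUSG00000016496, chromosome 19, 29367455 to 29388095, plus strand, mm10) shares 511 of its 3622 annotated exonic bases, 14.1%, with Gm36043 on the opposite strand. Gm36043 stood at 1.33, 1.68 and 1.71 FPKM in WT against 1.81, 1.92 and 1.65 FPKM in labelled KO and was not called. The strand setting of the counting is not given in the sources used here, so reads of the overlap cannot be assigned to either gene. Of the stretches of 51 bases in Cd274 transcripts, 12.3% also occur in transcripts of 204 other genes, and reads from those stretches are uncertain.

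The 250 bases before the Cd274 start in RefSeq (GRCm38.p6, chr19:29367188-29367437, plus strand) are shown because the gene is a known target of interferon gamma and NF-kB, whose pathway genes are described further on.
Cd274 upstream: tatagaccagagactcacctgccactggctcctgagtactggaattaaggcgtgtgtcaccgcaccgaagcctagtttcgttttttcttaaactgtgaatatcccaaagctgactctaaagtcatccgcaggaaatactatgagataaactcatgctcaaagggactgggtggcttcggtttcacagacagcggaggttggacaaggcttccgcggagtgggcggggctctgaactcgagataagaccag
The window was searched on both strands for the interferon elements ISRE (GAAA, any 2 bases, GAAA) and GAS (TTCNNNGAA), the NF-kB motif kB, the PU.1 core GAGGAA and the AP-1 motif TGANTCA. None of these letter patterns was found in it, which says nothing about sites elsewhere in the locus. Of 32851 RefSeq promoter windows of the same length, 2.98% held the ISRE, 7.02% the GAS, 7.25% the kB motif, 23.3% the PU.1 core and 6.75% the AP-1 motif.

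Pdcd1lg2, the neighbouring gene on chromosome 19 (ENSMUSG00000016498, 29410919 to 29471161, plus strand), encodes PD-L2, which also binds PD-1, and had the lowest level. Its FPKM was 0.486, 0.290 and 0.408 in WT and 0.371, 0.471 and 0.411 in labelled KO, on only 44 to 73 estimated counts. The groups overlapped, and the log2 fold change of 0.06 (edgeR adjusted p = 0.921) had an SE of 0.26. Its 95% limits of -0.58 and 0.69 do not settle the size or sign of a change. Its sign turned when WT 2 or KO 2 was left out. The opposite-strand gene A930007I19Rik, which overlaps the locus without sharing an exon, was at 0.568 to 0.875 FPKM over the 6 libraries.

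Vsir, which encodes the checkpoint protein VISTA, was the next most abundant of the 10 and was higher in the libraries labelled KO. Its FPKM was 52.1, 50.97 and 51.6 in WT and 60.7, 77.8 and 62.9 in labelled KO. Every labelled KO library lay above every WT library, and KO 2 stood far above the other 2. The means were 51.6 ± 0.588 and 67.1 ± 9.29 FPKM (SD, n = 3 each), on 19576 to 29963 estimated counts, and the coefficient of variation was 1.14% in WT and 13.8% in labelled KO. The log2 fold change was 0.36 (95% limits 0.15 and 0.58, SE 0.091; edgeR adjusted p = 0.048). Without KO 2 the fold change was 0.24 and the edgeR adjusted p 0.00916. The call was lost when WT 1, WT 2, WT 3 or KO 3 was left out, with edgeR adjusted p up to 0.134. Vsir (ENSMUSG00000020101, chromosome 10, 60346851 to 60372684, plus strand) lies inside the span of Cdh23 on the opposite strand without a shared exon, and Cdh23 was below 0.1 FPKM in each library (0.0248 to 0.094).

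The CD28 ligand genes Cd86 and Cd80, both on chromosome 16, had unequal levels and fold changes of opposite sign. Cd86 (ENSMUSG00000022901, 36603869 to 36666081, minus strand) encodes the ligand that resting macrophages usually carry. Its FPKM was 24.4, 24.8 and 24.1 in WT and 28.0, 26.8 and 27.4 in labelled KO, on 6756 to 8790 estimated counts. All labelled KO values were above all WT values by at least 1.99 FPKM. The means were 24.4 ± 0.385 and 27.4 ± 0.590 FPKM (SD, n = 3 each) and the log2 fold change was 0.15 (95% limits 0.07 and 0.23, SE 0.032; edgeR adjusted p = 0.0289). The call of Cd86 was lost without any 1 of the 6 libraries, with edgeR adjusted p from 0.0537 to 0.0978 and fold changes from 0.13 to 0.16.

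Cd80 (ENSMUSG00000075122, 38455561 to 38496335, plus strand), which encodes the ligand that activation usually raises, was not called. Its FPKM was 5.17, 5.65 and 4.98 in WT and 4.63, 4.93 and 4.91 in labelled KO, on 1406 to 1603 estimated counts. The groups were separated by 0.0443 FPKM, less than the SD within either group (0.343 and 0.170 FPKM). The log2 fold change was -0.14 (95% limits -0.31 and 0.02, SE 0.069; edgeR adjusted p = 0.256). The ratio of the Cd86 to the Cd80 level was 4.71, 4.402 and 4.84 in WT and 6.05, 5.44 and 5.57 in labelled KO. Every labelled KO library had the higher ratio, with means of 4.65 ± 0.224 and 5.69 ± 0.322 (SD, n = 3 each; exact two-sided permutation p = 0.1, the smallest value that 3 against 3 libraries allow). The ratio of Cd274 to Cd86, both called higher, was 4.66 ± 0.150 in WT and 4.79 ± 0.116 in labelled KO (exact permutation p = 0.5).

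**Figure D2:**
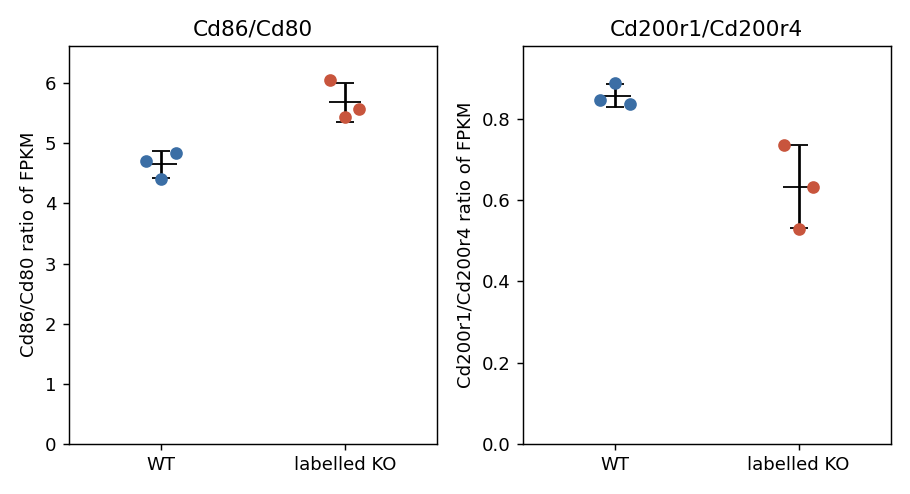
Ratio of FPKM of Cd86 to Cd80 (left) and of Cd200r1 to Cd200r4 (right) in each library (points), with the group mean and SD (bars) and an axis that starts at 0. The Cd86 to Cd80 ratio is higher in all 3 labelled KO libraries (5.44 to 6.05 against 4.402 to 4.84), and the Cd200r1 to Cd200r4 ratio is lower in all 3 (0.530 to 0.735 against 0.836 to 0.890).

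Cd83 had the largest change of the 10 and the smallest adjusted p. CD83 is an immunoglobulin-like surface protein known as a marker of mature dendritic cells, and its membrane form is known to protect MHC class II and CD86 from removal by the ubiquitin ligase MARCH1. Its FPKM was 7.61, 7.40 and 8.43 in WT and 3.67, 3.52 and 3.26 in labelled KO. The lowest WT library was 3.73 FPKM above the highest labelled KO library. The means were 7.81 ± 0.547 and 3.48 ± 0.206 FPKM (SD, n = 3 each), on 696 to 1668 estimated counts. The log2 fold change was -1.18 (95% limits -1.38 and -0.99, SE 0.081; edgeR adjusted p = 0.000395), a fitted ratio of 0.441. With any 1 library left out the fold change was between -1.22 and -1.12 and the edgeR adjusted p between 0.00254 and 0.00348. Cd83 (ENSMUSG00000015396, chromosome 13, 43784775 to 43803132, plus strand) shares no annotated exonic base with another gene.

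Because the labelled genotype concerns an m6A writer, the letters GGACT, a common form of that enzyme's motif, were located on the sense strand of the longest protein-coding transcript of each gene (GENCODE M21, the same build). The Cd83 transcript holds 4, of which 2 lie in the 5' UTR and 2 in the 3' UTR, shown here with 8 bases to each side and GGACT in capitals.
Cd83 5' UTR, chr13:43784796-43784816: caagccaaGGACTgcaggcgt
Cd83 5' UTR, chr13:43785051-43785071: agcaacgcGGACTtggggacg
Cd83 3' UTR, chr13:43802518-43802538: cagacaatGGACTgagaaacc
Cd83 3' UTR, chr13:43802861-43802881: cgcttgaaGGACTaatcacaa
The density in Cd83 was 1.61 per kb. Among 12545 tested genes with such a transcript the median was 1.05 per kb, with quartiles of 0.635 and 1.52, and 92.1% held at least 1. Over the 10 genes the density ran from 0.825 per kb in Vsir and 0.828 in Cd274 to 1.97 in Cd86 and 2.13 in Icosl. The lower genes Cd200r1 and Havcr2 had 1.59 and 1.84 per kb. Cd80, Cd40 and Pdcd1lg2, which were not called, had 1.58, 1.67 and 1.74 per kb. These matches describe letters in the reference, and m6A itself was not measured in these files.

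The 3 genes that tracked Cd83 most closely over the 6 libraries, among 9128 genes with a mean of at least 2 FPKM, were Rab4a, Dhrs3 and Fnip1, each with a Pearson r of 0.998 for log2(FPKM + 0.1), a value given as a description of libraries that fall into 2 groups. Rab4a encodes a small GTPase of endosome recycling, Dhrs3 a retinal reductase and Fnip1 a partner of folliculin. Their log2 fold changes were -0.40, -0.23 and -0.31, all smaller in size than that of Cd83.

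Havcr2, which encodes TIM-3, an inhibitory receptor of T cells and myeloid cells, was also lower in the libraries labelled KO. Its FPKM was 7.65, 8.70 and 7.02 in WT and 4.39, 4.58 and 4.87 in labelled KO. The groups were 2.14 FPKM apart at their nearest libraries. The means were 7.79 ± 0.850 and 4.62 ± 0.242 FPKM (SD, n = 3 each), on 959 to 1814 estimated counts, and the log2 fold change was -0.77 (95% limits -0.999 and -0.54, SE 0.095; edgeR adjusted p = 0.00388). With any 1 library left out the edgeR adjusted p was between 0.00832 and 0.0213. Havcr2 (ENSMUSG00000020399, chromosome 11, 46454935 to 46481255, plus strand) has 0.516% of its 51-base stretches in common with other genes. Of the 5 GGACT matches of its transcript, 2 lie in the coding sequence.
Havcr2 coding, chr11:46459073-46459093: gcccatggGGACTctactaca
Havcr2 coding, chr11:46469491-46469511: gaaattaaGGACTctggagaa

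The 250 bases before the Havcr2 start in RefSeq (GRCm38.p6, chr11:46454681-46454930, plus strand) are shown as a contrast to the Cd274 window, with the letters of 2 motifs in capitals.
Havcr2 upstream: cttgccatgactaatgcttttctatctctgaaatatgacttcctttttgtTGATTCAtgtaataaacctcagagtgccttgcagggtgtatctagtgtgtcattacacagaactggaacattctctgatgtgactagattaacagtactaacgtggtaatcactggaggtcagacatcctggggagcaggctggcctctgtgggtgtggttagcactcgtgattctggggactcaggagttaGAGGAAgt
The capitals mark an AP-1 match, TGATTCA, at 200 to 194 bases before the start and the PU.1 core GAGGAA at 8 to 3 bases before it, and these matches do not overlap. An AP-1 match was also present in the Cd80 window (chr16:38458683-38458932), 42 to 36 bases before the RefSeq start. The Icosl window (chr10:78069118-78069367) held a kB match at 111 to 102 bases. The Cd80 window lies inside the span of Cd80 in the deposited table, and the Icosl window runs past the start of the Icosl span. For both genes the RefSeq start therefore differs from the start in the deposited table. The Pdcd1lg2 window held a kB match at 244 to 235 bases and a PU.1 core at 82 to 77 bases, and the Vsir window held none of the 5 motifs. Promoter windows were at hand for Cd80, Cd274, Pdcd1lg2, Icosl, Vsir and Havcr2.

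Cd200r1, which encodes the inhibitory receptor for CD200, was lower in the libraries labelled KO, with a wide spread among them. Its FPKM was 36.0, 36.5 and 35.6 in WT and 31.1, 23.1 and 28.1 in labelled KO. Every labelled KO library lay below every WT library, and KO 2 was the lowest. The means were 36.0 ± 0.431 and 27.4 ± 4.07 FPKM (SD, n = 3 each), on 5933 to 9352 estimated counts, and the log2 fold change was -0.41 (95% limits -0.65 and -0.16, SE 0.102; edgeR adjusted p = 0.0486). Without KO 2 the fold change was -0.30 and the edgeR adjusted p 0.026. The call was lost when WT 1, WT 2, WT 3 or KO 3 was left out, with edgeR adjusted p up to 0.133.

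Cd200r1 (ENSMUSG00000022667, chromosome 16, 44765736 to 44794978, plus strand) lies beside its paralog Cd200r4, an activating receptor gene with which it shares 1.10% of its 51-base stretches. Cd200r4 was at 42.5, 41.0 and 42.6 FPKM in WT against 42.3, 43.5 and 44.5 FPKM in labelled KO. Its groups overlapped and it was not called (log2 fold change 0.03, edgeR adjusted p = 0.641). The ratio of Cd200r1 to Cd200r4 was 0.847, 0.890 and 0.836 in WT and 0.735, 0.530 and 0.633 in labelled KO, lower in every labelled KO library (exact permutation p = 0.1, the smallest possible). KO 2, the library with the most Vsir, was also the one with the least Cd200r1. The ratio of Vsir to Cd200r1 was 1.45, 1.40 and 1.45 in WT and 1.95, 3.37 and 2.23 in labelled KO.

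Cd40, the receptor through which helper T cells license antigen-presenting cells, was not called. Its FPKM was 2.46, 2.27 and 2.47 in WT and 2.76, 2.93 and 3.58 in labelled KO, on 596 to 1071 estimated counts. The labelled KO values were all above the WT values, with KO 3 the highest. The means were 2.40 ± 0.113 and 3.09 ± 0.432 FPKM (SD, n = 3 each) and the log2 fold change was 0.34 (95% limits 0.07 and 0.62, SE 0.114; edgeR adjusted p = 0.112). Cd40 (ENSMUSG00000017652) lies on chromosome 2, 165055627 to 165072948, plus strand.

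Icosl, the ligand of the costimulatory receptor ICOS, stood near 1 FPKM and was not called. Its FPKM was 0.981, 1.27 and 0.9998 in WT and 1.27, 1.11 and 1.201 in labelled KO, on 345 to 495 estimated counts. The groups overlapped, with WT 2 and KO 1 both at 1.27 FPKM. The log2 fold change was 0.13 (95% limits -0.18 and 0.44, SE 0.13; edgeR adjusted p = 0.607; exact permutation p = 0.3). Icosl (ENSMUSG00000000732) lies on chromosome 10, 78069302 to 78079525, plus strand, in the deposited table, and its end differs in GENCODE M21, unlike that of the other 9 genes. For the 8 genes without overlap the exact two-sided permutation test on FPKM gave p = 0.1, the smallest value possible here, and for Pdcd1lg2 it gave 0.8.

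**Figure D3:**
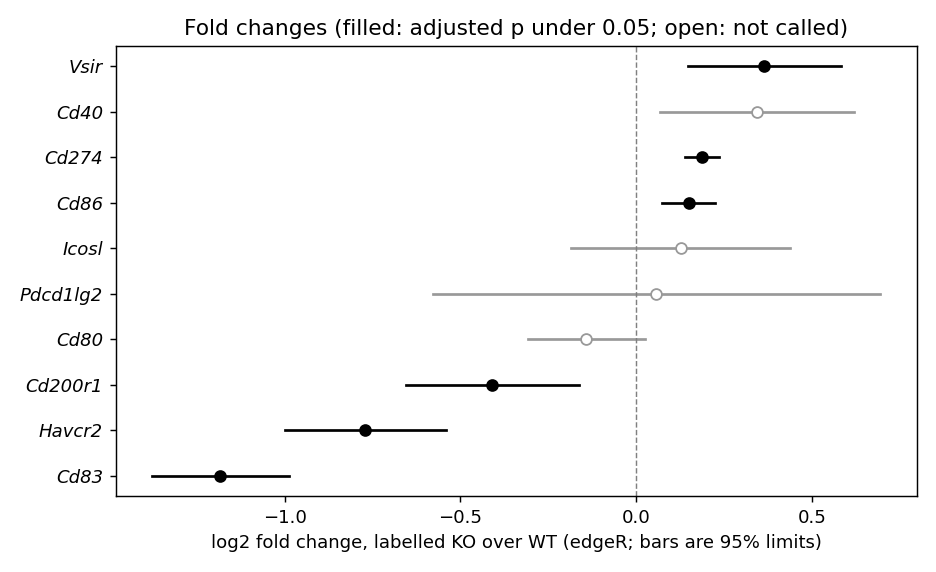
Fold change (log2, labelled KO over WT) of each of the 10 genes from edgeR, with 95% limits as bars and filled points for genes at an adjusted p under 0.05. Cd83 (-1.18) and Havcr2 (-0.77) lie farthest from 0, while the higher genes Vsir, Cd274 and Cd86 lie between 0.15 and 0.36.

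By level, Cd274, Vsir, Cd200r1 and Cd86 headed the 10 genes in both groups, and the order below them changed. In WT it ran Cd274, Vsir, Cd200r1, Cd86, Cd83, Havcr2, Cd80, Cd40, Icosl and Pdcd1lg2, and Cd83 and Havcr2 were the only neighbours whose libraries overlapped. In labelled KO, Cd80 and Havcr2 followed Cd86, with Cd83 and Cd40 after them, and the libraries of Cd200r1 and Cd86, of Cd80 and Havcr2 and of Cd83 and Cd40 overlapped. Cd274 made up 44.7% to 45.9% of the summed FPKM of the 10 genes in WT and 47.6% to 49.0% in labelled KO. The Vsir share went from 20.4% to 20.7% in WT to 22.6% to 28.1% in labelled KO. Cd83 took 2.96% to 3.36% of the sum in WT and 1.22% to 1.36% in labelled KO. The sum itself was 249 to 252 FPKM in WT against 266 to 277 FPKM in labelled KO, and Cd274 and Vsir together exceeded the other 8 genes in every library.

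**Figure D4:**
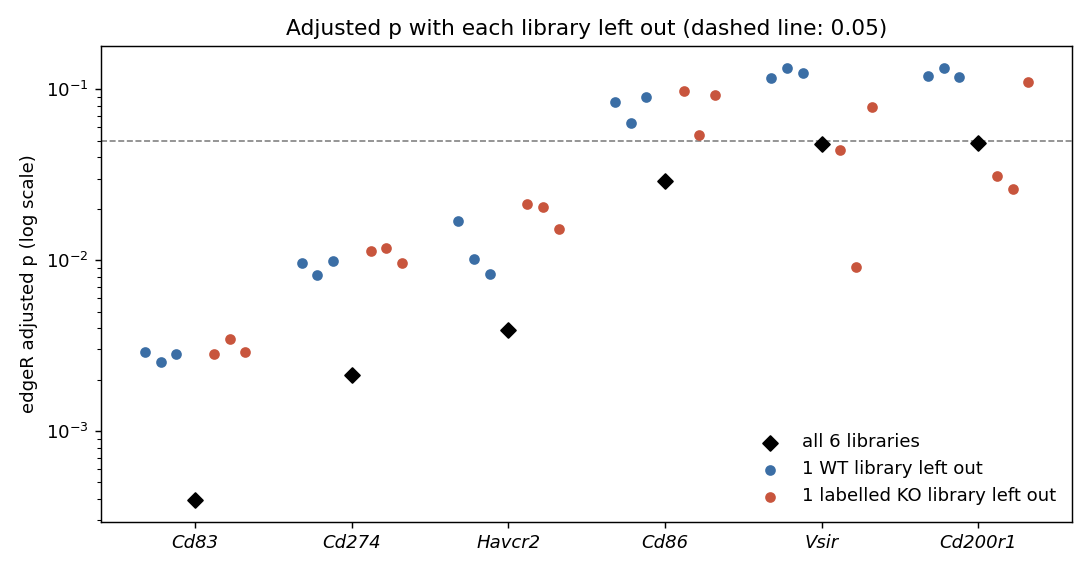
Adjusted p from edgeR (log scale) for the 6 called genes with all 6 libraries (diamonds) and with 1 WT (blue) or 1 labelled KO (red) library left out. The points of Cd83, Cd274 and Havcr2 all stay below the dashed line at 0.05, the circles of Cd86 all lie above it, and the circles of Vsir and Cd200r1 lie below it only without KO 1 or KO 2.

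The deposited annotation places 9 of the 10 genes, all but Havcr2, on the external side of the plasma membrane, a term held by 1.54% of tested genes. Cd80, Cd86, Cd274 and Pdcd1lg2 carry the term T cell costimulation, and with Havcr2 they also carry negative regulation of T cell proliferation. Of the 10 genes, 7 belong to the cell adhesion molecules of KEGG, a term held by 0.621% of tested genes. They are Vsir, Cd274 and Cd86, which were called higher, and Cd80, Cd40, Pdcd1lg2 and Icosl, which were not called. Cd83, Cd200r1 and Havcr2, the genes called lower, do not carry this term.

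Among 12 receptors and other partners of these proteins, of which 11 could be tested, 3 were called higher under the KO label and 2 lower, and the median log2 fold change was 0.13. For this and the lists that follow, the share of all tested genes called was 12.7%, with 7.01% called higher and 5.67% lower. Cd28, the receptor of CD80 and CD86 that is best known on T cells, was 16.3, 16.4 and 16.4 FPKM in WT against 10.5, 9.66 and 10.7 FPKM in labelled KO. The groups were clearly apart (fold change -0.69 on the log2 scale, SE 0.045; edgeR adjusted p = 0.000349), and the call of Cd28 held in all 6 fits with 1 library left out. Selplg, which encodes PSGL-1, a partner of VISTA, rose from 58.5 to 73.3 FPKM (0.31, edgeR adjusted p = 0.00177). Lgals9, which encodes galectin-9, a ligand of TIM-3, fell from 143 to 128 FPKM (log2 fold change -0.18, edgeR adjusted p = 0.00389). Rgmb, a partner of PD-L2, rose from 3.76 to 4.62 FPKM (0.28, edgeR adjusted p = 0.0143), a call lost without WT 1, KO 1 or KO 3 (edgeR adjusted p up to 0.0576).

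Of the 12 partners, 6 were below 1 FPKM in every library. Pdcd1, the gene of PD-1, was 0.0431, 0.0372 and 0.0664 FPKM in WT against 0.388, 0.247 and 0.132 FPKM in labelled KO, on 6 to 64 estimated counts. It was called (fold change 2.29 on the log2 scale, SE 0.53; edgeR adjusted p = 0.0388), but in fits with 1 library left out the call held only without KO 3, with adjusted p up to 0.14 in the others. Ctla4 was at most 0.149 FPKM, Icos 0.529 to 0.681 FPKM and Cd200 0.217 to 0.590 FPKM, and none of them was called. Hmgb1, Ceacam1 and Igsf11 were not called either. Cd40lg had 0 counts in all 6 libraries.

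**Figure D5:**
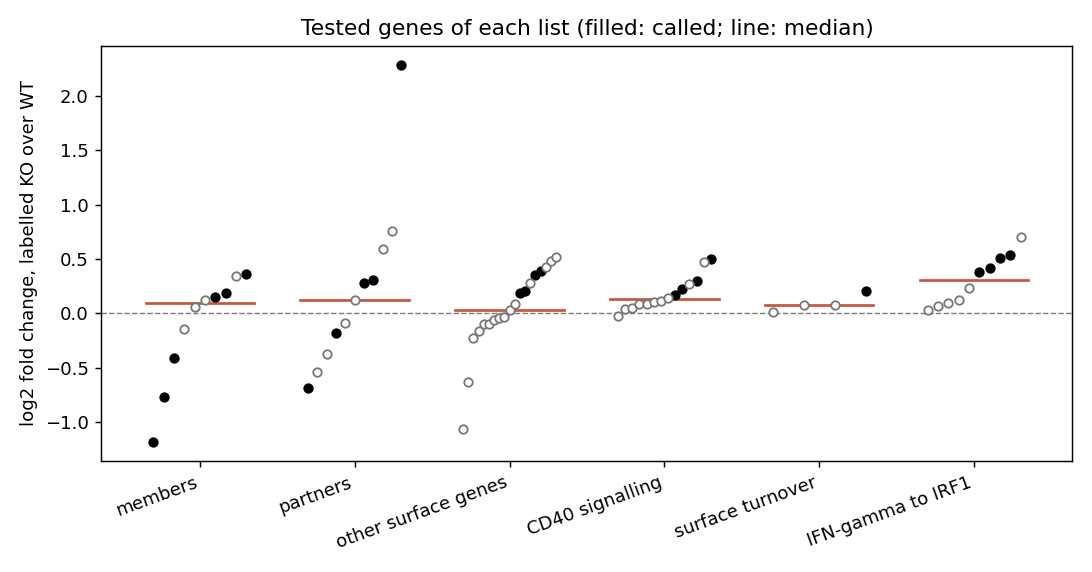
Fold change (log2, labelled KO over WT) of each tested gene among the 10 costimulatory and checkpoint genes and of 5 related lists, with filled points for called genes, open points for the others and a red line at each list's median. The 10 genes spread from -1.18 to 0.36, whereas the called genes among other surface genes, CD40 signalling, surface turnover and the interferon gamma axis all lie above 0, and the point near 2.29 among the partners is Pdcd1.

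Of 28 other costimulatory or coinhibitory surface genes of antigen-presenting cells, 19 could be tested and 4 were called, all higher in the libraries labelled KO, with a median of 0.03. Over all tested genes 12.7% were called, and 17.5% of those with a mean of at least 1 FPKM in a group. DESeq2 called 6 genes of the list higher. No gene of the list was called lower by edgeR or by DESeq2, and 1 was lower at an unadjusted p under 0.05 by edgeR. The adhesion molecule gene Icam1 rose from 45.7 to 53.4 FPKM (0.21, edgeR adjusted p = 0.00327) and Cd48, a ligand of the receptor CD244, from 152 to 175 FPKM (0.19, edgeR adjusted p = 0.00463). Pilra, which encodes an inhibitory myeloid receptor, rose by 0.35 and Nectin2, which encodes a ligand of TIGIT and CD226, by 0.39. Tnfrsf14, the HVEM receptor gene, was 52.0 and 64.0 FPKM and was not called (0.28, edgeR adjusted p = 0.0647). Tnfsf9, which encodes the 4-1BB ligand, had overlapping groups and a fold change of -0.09. Vtcn1, Btn1a1, Btn2a2 and Havcr1 had 0 counts in every library.

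Of the 14 genes of CD40 signalling, 4 were called higher and 0 lower by edgeR (8 and 0 at an unadjusted p under 0.05, and 6 and 0 called by DESeq2), with a median of 0.13. Birc3, a ubiquitin ligase bound to the receptor's adaptors, rose from 22.6 to 28.1 FPKM (0.30, edgeR adjusted p = 0.00795) and the NF-kB subunit gene Nfkb1 from 11.5 to 13.1 FPKM (0.17, edgeR adjusted p = 0.0118). The adaptor genes Traf6 (0.22, edgeR adjusted p = 0.0152) and Traf1 (0.50, edgeR adjusted p = 0.0213) were also called. The Traf6 call held in 2 of the 6 fits with 1 library left out, and the Traf1 call held only without WT 2. Without any 1 labelled KO library 2 genes of this list were called, and without any 1 WT library 3 were. Tnfaip3 (0.47) and Relb (0.09) were not called.

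Of 4 genes that govern how long CD86 and PD-L1 stay at the surface, only Marchf1, the ubiquitin ligase that removes MHC class II and CD86, was called. It was 23.97, 21.5 and 23.2 FPKM in WT against 27.7, 25.9 and 26.9 FPKM in labelled KO (a log2 difference of 0.21 with SE 0.047, edgeR adjusted p = 0.0324). The groups did not overlap, although the call held only when WT 1 was left out among the fits with 5 libraries. In these libraries Marchf1 was thus higher and Cd83 lower, and protein levels of CD86 or MHC class II were not measured.

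Of the 10 genes of the interferon gamma receptor, its signalling genes and IRF1, the best known inducers of Cd274, 4 were called higher and 0 lower by edgeR (6 and 0 at an unadjusted p under 0.05, and 5 and 0 called by DESeq2). All 10 fold changes were above 0, with a median of 0.31, against -0.005 over all tested genes. Jak2, a kinase of the receptor that lies on chromosome 19 near Cd274 (29251828 to 29313080, plus strand), rose from 19.8 to 26.0 FPKM (0.38, edgeR adjusted p = 0.000689). The feedback inhibitor genes Socs3 and Socs1 rose by 0.42 and 0.53, and Irf2, which encodes a relative of IRF1, by 0.51 (edgeR adjusted p = 0.000619, 0.0119 and 0.000839). Irf1 itself was 80.9, 70.8 and 40.6 FPKM in WT against 105, 106 and 107 FPKM in labelled KO. Its groups did not overlap, WT 3 was low, and it was not called (0.71, edgeR adjusted p = 0.108), whereas without WT 3 the edgeR adjusted p was 0.0118.

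Several of these genes are also expressed by dendritic cells and lymphocytes, whose markers were read in the same libraries. Of 15 dendritic cell markers, 10 were below 1 FPKM in every library, and the summed level was 30.9 to 45.0 FPKM in WT against 32.3 to 32.9 FPKM in labelled KO. Siglech and Cd209a had 0 counts, Flt3 was at most 0.0173 FPKM and Zbtb46 at most 0.102 FPKM. These low genes were chosen after their values were seen. Most of the sum came from markers that reached 1 FPKM, and of those only Fscn1 is named here. Of the 15 dendritic cell markers edgeR called 1 and DESeq2 called 3 (2 higher and 1 lower). Over the 11 tested by edgeR the median was 0.09, with 6 values above 0. The edgeR call was Fscn1, which encodes an actin-bundling protein of mature dendritic cells (0.44, edgeR adjusted p = 0.0434). Fscn1 was not called in any fit with 1 library left out.

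None of the 15 T and NK cell markers was called by edgeR, DESeq2 or limma, and 3 were higher at an unadjusted p under 0.05 by edgeR. Of these markers 14 had fold changes above 0, the median was 0.28, and the summed level went from 15.8 to 17.4 FPKM in WT to 19.3 to 19.9 FPKM in labelled KO. Nkg7 stood at 5.22 and 5.62 FPKM, Trac at 2.45 and 3.21 FPKM and Cd3e at 0.363 and 0.438 FPKM. The part of T or NK cells in the values of Cd28 and Pdcd1 was not tested.

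The B cell markers summed to 4.98 to 5.36 FPKM in WT against 5.91 to 6.52 FPKM in labelled KO. Of 10 markers, 6 could be tested and Cd22, an inhibitory lectin gene, was called (2.82 to 4.28 FPKM, log2 fold change 0.58). The median of the 6 was -0.03, with 3 values above 0. By edgeR 1 marker was lower at an unadjusted p under 0.05, and 1 was called lower with the FPKM filter and under limma. The neutrophil markers summed to 61.4 to 66.6 FPKM in WT against 52.2 to 62.4 FPKM in labelled KO. Mpo was called higher (1.46), on 37 to 198 estimated counts, and Ltf lower (-0.38). The median of the 8 neutrophil markers tested was -0.29, with 3 values above 0. At an unadjusted p under 0.05 by edgeR, 1 of them was higher and 3 lower, and DESeq2 called 1 higher and 2 lower. The Mpo call held in 2 of the 6 fits with 1 library left out and the Ltf call in none. The 10 mast cell and basophil markers were all below 1 FPKM in every library, 5 of them at 0 counts, and none of the 3 tested was called by edgeR, DESeq2 or limma or passed an unadjusted p under 0.05 by edgeR. Kit and Hdc, the most abundant of them, had fold changes of 0.31 and -0.39. The part of any of these cells in the levels of the 10 genes was not tested.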

How the data were processed

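The submitters' processing notes name cutadapt 1.9, HISAT2 2.0.4 and StringTie 1.3.4d with mm10, with settings and strand not given in the sources used here. Per the file headers, the authors deposited FPKM and an estimated count for each gene and library. Of counts between 1 and 20, 36.9% to 40.4% were multiples of 4, against 25% for an even spread, so low counts are not tallies of reads. A count of 0 carries an FPKM of 0.0001.

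Estimated counts were rounded and fitted over 6 libraries with edgeR 4.0.16 in R 4.3.3 (TMM, filterByExpr with minimum count 10 and total 15, quasi-likelihood test), which was tested on simulated data. Standard errors come from fold change and F statistic, 95% limits from the t distribution with 6.50 degrees of freedom. DESeq2 1.42.0, limma 3.58.1 on log2(FPKM + pseudocount), other filters and factors, a replicate block and each library left out were alternatives.

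Members and lists were chosen with earlier results of these data known. Named are the 10 genes, Mettl3, up to 4 called genes of each list by adjusted p (with none called, the 2 of highest FPKM), the 3 genes most like Cd83, and overlapping genes or paralogs. Pdcd1, Ctla4, Icos, Cd200, Cd40lg, Hmgb1, Ceacam1, Igsf11, Irf1, Tnfrsf14, Tnfsf9, Tnfaip3, Relb, Cd3e, Flt3 and Zbtb46 and genes named for 0 counts were chosen after their values were seen. Upstream sequences are from RefSeq and transcripts from GENCODE M21. Some listed genes are not reported here by name.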

Additional observations from a re-analysis of the deposited data

How the results depend on the processing

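With all libraries 2060 genes were called, among them 6 of the 10, and with 1 library left out 1244 to 1339 genes were called, among them 3 to 5 of the 10. Libraries of the same replicate number did not deviate together (correlations of deviations 0.00756, -0.05506 and -0.03762, against -0.07504 to 0.10950 for unlike numbers). With 3 libraries in each group, these values cannot show whether the numbers mark pairs. A fit with the replicate block called 1012 genes, and 3 of the 10 (Cd83, Cd274 and Havcr2). DESeq2, median-of-ratios factors and an FPKM filter, which left Pdcd1lg2 untested, called 6 of the 10. Without a count filter and under limma with pseudocounts of 0.1, 1 and 0.01, 4 were called, and Vsir and Cd200r1 were not (adjusted p from 0.0589 to 0.0714). With 1 library left out Pdcd1lg2 ranged from -0.12 (without WT 2) to 0.24, and was -0.034 without KO 2. Mettl3 ranged from -0.066 (without WT 3) to 0.11, and was -0.055 without KO 3. Nkg7 ranged from -0.014 (without WT 3) to 0.24. The cause was not tested. Icos ranged from -0.15 to 0.020 and Zbtb46 from -0.36 to 0.50 with 1 library left out. Low counts limit Pdcd1lg2, Pdcd1, Ctla4 and Flt3. Pdcd1 was not called by DESeq2, without a count filter, with the block or under limma with pseudocounts of 0.1 and 1. The FPKM filter left Pdcd1 untested.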
